A study of Mus musculus with 10 samples.

Results

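The genes described here encode 8 peptidases and 1 peptide carrier that work on small peptides in the kidney proximal tubule: Mep1a, Mep1b, Anpep, Dpp4, Ggt1, Dpep1, Cndp2, Xpnpep2 and Slc15a2. They were chosen by name, and 9 of 27876 genes measured were followed, with 56 of 85107 transcripts. A gene's value is that of its most abundant transcript. RNA was sequenced from kidney tissue of wild-type mice killed on day 14. Vehicle was given to 5 and quinolinic acid to 5, mice that the submitters chose as representative of their group by criteria not given. Quinolinic acid is a tryptophan metabolite of the kynurenine pathway, given here at 0.5 g/L in drinking water. The question addressed is how exposure to quinolinic acid relates to kidney gene expression. The labels give all 10 libraries the same batch, and they give neither the age of the mice nor whether kidney injury was induced.

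The brush border is the carpet of microvilli on the urinary side of proximal tubule cells. Peptides filtered by the glomerulus are cut there by membrane peptidases into amino acids and di- and tripeptides, which carriers then take up, and dipeptides that enter the cell are split in the cytosol. Some of these enzymes also act on signalling peptides and on glutathione, which gamma-glutamyltransferase and dipeptidase take apart in sequence. Of the genes followed, Slc15a2 encodes a carrier and not a peptidase, and Cndp2 encodes a cytosolic enzyme and not a brush border protein, so the name brush border peptidases covers them only as partners in peptide handling.

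The values were those of the authors' deposited table, which lists per transcript how the groups differ (log2 fold change), the mean level as log2 CPM (counts scaled to library size), the statistic of edgeR's likelihood-ratio test, its p and its adjusted p. It holds no values of single libraries, so levels by mouse, the spread within a group and the depth of each library are not given here, and no overlap between groups can be stated. Nothing in the header tells whether vehicle or quinolinic acid is the numerator, so signs are given as deposited. The 95% intervals are approximate and were derived from the fold change and its test statistic. In whole tissue, fewer cells of a type and less RNA per cell cannot be told apart. Markers fixed for the proximal tubule were abundant, with all 12 between 30.5 and 1961 CPM. Of 6 intestinal epithelium markers, another tissue with a brush border, 4 were measured, and the highest, Apoa4, stood at 5.93 CPM in the authors' deposited table.

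Promoter sequence is shown for members that the results below turn on. These are Mep1a and Dpp4, which carry a negative sign in all their transcripts, Ggt1, which was measured from several starts, and Xpnpep2, which has the largest fold change. RefSeq (GRCm38.p6, the assembly of mm10) gave 10 start windows for 7 of the 9 genes, 4 of them for Ggt1. Each line runs 5′ to 3′ on the gene's strand over the 200 bases from 250 to 51 before the RefSeq start, and capitals mark a CCAAT box or a TATA box (TATAAA) on either strand.
Mep1a, chr17:43502824-43503023, minus strand: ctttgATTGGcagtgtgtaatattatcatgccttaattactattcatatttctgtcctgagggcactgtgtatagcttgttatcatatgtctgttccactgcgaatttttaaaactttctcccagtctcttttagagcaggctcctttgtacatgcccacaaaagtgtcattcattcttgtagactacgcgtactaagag
Ggt1, start near that of Ggt1-208, chr10:75568412-75568611, plus strand: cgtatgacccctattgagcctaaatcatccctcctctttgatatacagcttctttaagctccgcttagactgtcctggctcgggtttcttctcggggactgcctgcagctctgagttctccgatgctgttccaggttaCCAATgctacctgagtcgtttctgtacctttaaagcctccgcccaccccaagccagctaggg
Ggt1, start near that of Ggt1-201, chr10:75573245-75573444, plus strand: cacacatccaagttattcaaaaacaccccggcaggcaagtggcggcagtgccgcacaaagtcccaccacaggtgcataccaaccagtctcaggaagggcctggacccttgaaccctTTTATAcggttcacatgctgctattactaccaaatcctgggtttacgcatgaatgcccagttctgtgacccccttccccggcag
Dpp4, chr2:62412282-62412481, minus strand: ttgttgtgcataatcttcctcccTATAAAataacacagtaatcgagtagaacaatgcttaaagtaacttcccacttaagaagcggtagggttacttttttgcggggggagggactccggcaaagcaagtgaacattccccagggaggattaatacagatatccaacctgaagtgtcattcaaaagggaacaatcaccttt
Xpnpep2, chrX:48108475-48108674, plus strand: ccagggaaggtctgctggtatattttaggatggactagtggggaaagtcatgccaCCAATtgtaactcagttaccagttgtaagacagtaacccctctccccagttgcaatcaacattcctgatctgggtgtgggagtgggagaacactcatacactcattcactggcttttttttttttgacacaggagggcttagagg
A CCAAT box was found in 4 of the 10 member windows, in Mep1a, Xpnpep2 and 2 starts of Ggt1, against 28.4% of 32851 windows of all genes. TATAAA was found in 2 of the 10, in Dpp4 and in the Ggt1 start near Ggt1-201, against 9.14% of all windows. The E-box CACGTG was in 0 of the 10, against 4.34% of all windows. In the other Ggt1 window that holds a CCAAT box, not printed here, matches on both strands overlap, and no match of one motif overlaps another. Matches of letters are a description of the windows and not binding sites.

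The 9 genes spanned a wide range of levels. Per length of transcript, the authors' deposited table put Cndp2 highest at 326 CPM per kb, followed by Mep1a at 242 CPM per kb and Ggt1 at 225 CPM per kb. These ranked 70, 98 and 108 among 13115 genes of at least 1 CPM. Mep1b, whose product pairs with that of Mep1a, stood at 43.1 CPM per kb in the authors' deposited table. Below it came Dpep1 at 17.7, Anpep at 14.6, Slc15a2 at 9.69 and Dpp4 at 4.78 CPM per kb in the authors' deposited table. Xpnpep2 was lowest at 0.992 CPM per kb, below all but 14.9% of genes of at least 1 CPM. All 9 passed 1 CPM, and all but Xpnpep2 passed 10 CPM. Without values per library, whether neighbours in this order differ beyond their spread cannot be said.

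**Figure D1:**
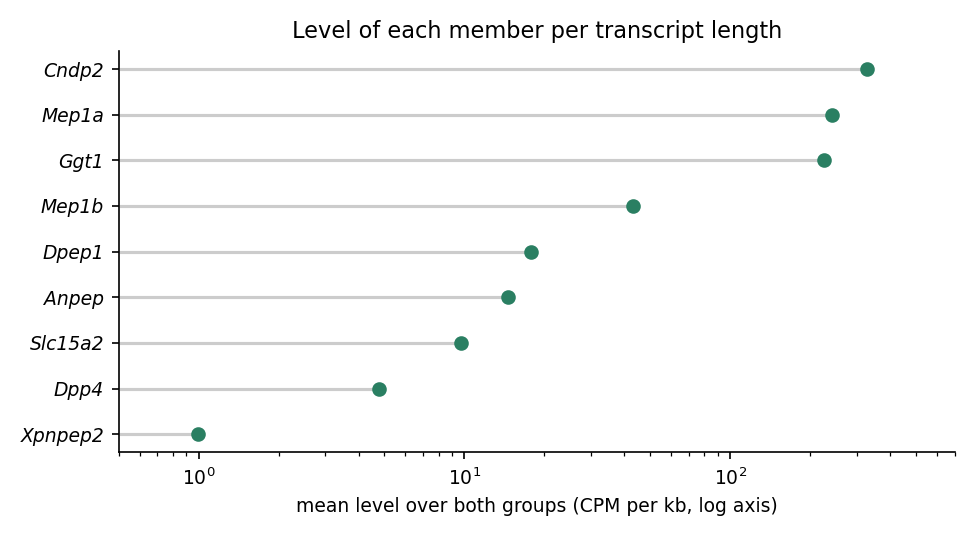
Mean level of each gene over both groups in CPM per kb of its most abundant transcript, on a log axis. Cndp2, Mep1a and Ggt1 stand above 200 CPM per kb, and Xpnpep2 stands near 1.

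No member passed the authors' test for a difference between the groups. An adjusted p under 0.05 in edgeR's likelihood-ratio test was reached by 0 of the 9 genes and 0 of their 56 transcripts. The authors' deposited table has 0.0141% of all transcripts under that threshold. An unadjusted p under 0.05 was likewise reached by 0 of the 9 genes, against 4.09% of genes of at least 1 CPM, and by 0 of the 56 transcripts, against 6.08% of all transcripts. With only 9 genes, a count of 0 is near these background shares. The 56 transcripts share reads within a gene, and 49 of them reached 1 CPM. The 6.08% over transcripts of any level is thus not a like background for them, and nothing is drawn from their count. The smallest p among member transcripts was 0.0676 and the smallest adjusted p 0.794 in the authors' deposited table. Positive signs were found for 6 of the 9 genes and negative signs for 3. Their median log2 fold change was 0.08, with the middle 50% from -0.06 to 0.13. Among 13115 genes of at least 1 CPM the median was 0.08, the middle 50% ran from -0.01 to 0.16, and 71.8% had a positive sign.

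**Figure D2:**
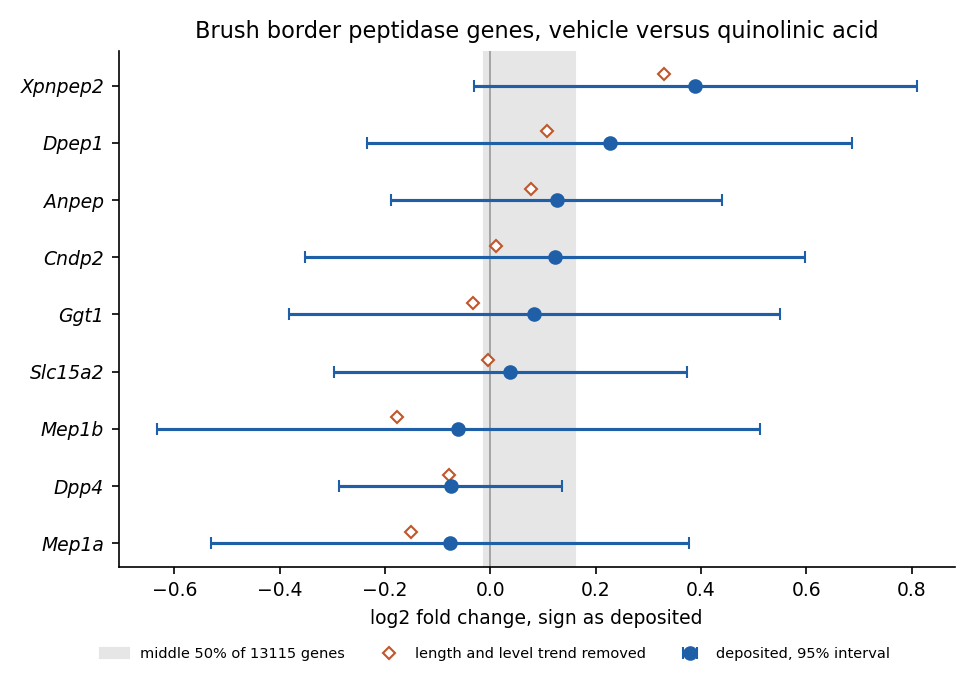
Log2 fold change of each gene with its sign as deposited (points), its approximate 95% interval (bars) and its value after removal of the trend on transcript length and level (diamonds). The grey band is the middle 50% of 13115 genes of at least 1 CPM, and the interval of every gene shown includes 0.

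The meprins, zinc metallopeptidases that cleave larger peptides and proteins, both carried a small negative sign. Mep1a (chromosome 17, 43474324 to 43502812, minus strand, mm10), the gene of the alpha subunit, is listed in the authors' deposited table at a level of 719 CPM and a log2 fold change of -0.08 (95% interval -0.53 to 0.38, adjusted p = 0.983). Mep1b (chromosome 18, 21061923 to 21100199, plus strand), the gene of the beta subunit, is listed in the authors' deposited table at 98.6 CPM and a log2 fold change of -0.06 (-0.63 to 0.51, adjusted p = 1). Each value lay inside the interval of the other. Mep1b had the widest interval of the 9 genes, and a log2 fold change of 1.36 (2.56-fold) would have been needed for it to reach the smallest likelihood ratio called in the table.

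The exopeptidases of the cell surface, which trim residues from the end of a peptide, went in both directions. Anpep (chromosome 7, 79821803 to 79861059, minus strand), which encodes aminopeptidase N, has a level of 55.5 CPM and a log2 fold change of 0.13 (-0.19 to 0.44, adjusted p = 0.877) in the authors' deposited table. Dpp4 (chromosome 2, 62330073 to 62412231, minus strand), whose product removes dipeptides from the amino end of peptides such as incretins, has 25.2 CPM and a log2 fold change of -0.08 (-0.29 to 0.14, adjusted p = 0.905) in the authors' deposited table. Dpp4 had the narrowest interval, which reached from a 0.820-fold to a 1.10-fold ratio. For Dpp4 a 1.41-fold difference would have reached the smallest likelihood ratio called, against 1.68-fold for Anpep and 1.99-fold for Xpnpep2.

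Xpnpep2 (chromosome X, 48108725 to 48136981, plus strand), the gene of membrane-bound aminopeptidase P, which removes residues that precede proline and can inactivate bradykinin, had the largest log2 fold change of the 9 genes and did not pass the test. The authors' deposited table gives it 3.47 CPM and a log2 fold change of 0.39 (-0.03 to 0.81), a 1.31-fold ratio (p = 0.0695, adjusted p = 0.794). Of genes of at least 1 CPM, 97.8% had a lower log2 fold change than Xpnpep2 as deposited, and with the ratio turned the same share would lie above it. All 5 Xpnpep2 transcripts had a positive sign, from 0.22 for Xpnpep2-205 to 0.47 for Xpnpep2-204, both under 1 CPM, in the authors' deposited table. Transcripts of a gene share reads, so they are not separate measurements of it. Without Xpnpep2 the median of the other 8 genes was 0.06.

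Ggt1 and Dpep1, whose enzymes take glutathione apart in sequence, had a positive sign, and neither passed the test. Ggt1 (chromosome 10, 75561604 to 75586200, plus strand), which encodes the gamma-glutamyltransferase that opens glutathione, is listed in the authors' deposited table at 482 CPM and a log2 fold change of 0.08 (-0.38 to 0.55, adjusted p = 0.979). Dpep1 (chromosome 8, 123186242 to 123201812, plus strand), whose dipeptidase splits the resulting cysteinylglycine and converts leukotriene D4, is listed in the authors' deposited table at 39.7 CPM and a log2 fold change of 0.23 (-0.23 to 0.69, adjusted p = 0.831). Of genes of at least 1 CPM, 52.0% lay below Ggt1 and 88.6% below Dpep1 with the sign as deposited, shares that would lie above them with the ratio turned. Of 8 other genes of the glutathione cycle, which covers synthesis, recycling and breakdown, 6 were positive and 2 negative (median 0.05). An unadjusted p under 0.05 was reached by 0 of them, against 4.09% of genes of at least 1 CPM. With the trend on transcript length and level removed, 3 of the 7 that reached 1 CPM were positive (median -0.0035). Gclc, the catalytic subunit of the enzyme that starts glutathione synthesis, had a log2 fold change of -0.28 (-0.67 to 0.11) and glutathione reductase, Gsr, one of 0.18 (-0.07 to 0.43) in the authors' deposited table.

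The partners in peptide handling had values near those of all genes. Cndp2 (chromosome 18, 84667465 to 84685702, minus strand), the cytosolic dipeptidase, has a level of 702 CPM and a log2 fold change of 0.12 (-0.35 to 0.60, adjusted p = 0.945) in the authors' deposited table. Slc15a2 (chromosome 16, 36750177 to 36784962, minus strand), which encodes the proton-coupled carrier PEPT2 that reabsorbs di- and tripeptides, has 38.7 CPM in the authors' deposited table and a log2 fold change of 0.04 (-0.30 to 0.37, adjusted p = 1). Slc15a1, the gene of the related carrier PEPT1, was scarce at 0.250 CPM, with a log2 fold change of 0.09 in the authors' deposited table. Among the 17 other peptide and amino acid carriers measured, 14 were positive (median 0.09), against 71.8% of genes of at least 1 CPM. With the trend on transcript length and level removed, 9 of the 15 carriers of at least 1 CPM were positive (median 0.03). An unadjusted p under 0.05 was reached by 1 of the 17, against 4.09% of genes of at least 1 CPM. It was Slc3a2, the heavy chain of heteromeric amino acid carriers, which the authors' deposited table puts at 0.28 (log2 fold change, 0.03 to 0.53, adjusted p = 0.794).

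Within several genes the fold change followed the part of the gene that a transcript covers, and Ggt1 showed this most fully. Its table rows cover 20 transcripts, named here after their values were seen. The 8 that end within 14.7 kb of the gene's 5′ end had log2 fold changes of -0.18 to -0.15, and the 7 that end between 17.3 and 19.8 kb had -0.13 to -0.04 in the authors' deposited table. Ggt1-205, which ends at 23.3 kb, stood at -0.01 in the authors' deposited table. The 2 full-length coding transcripts, Ggt1-208 and Ggt1-201, whose starts lie near the pair of Ggt1 windows printed above, had 0.08 and 0.09 in the authors' deposited table. The 2 transcripts that hold only 3′ exons, Ggt1-219 and Ggt1-220, had the highest values, 0.19 and 0.21, in the authors' deposited table. The interval of each Ggt1 transcript included 0, and overlapping transcripts count many of the same reads.

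**Figure D3:**
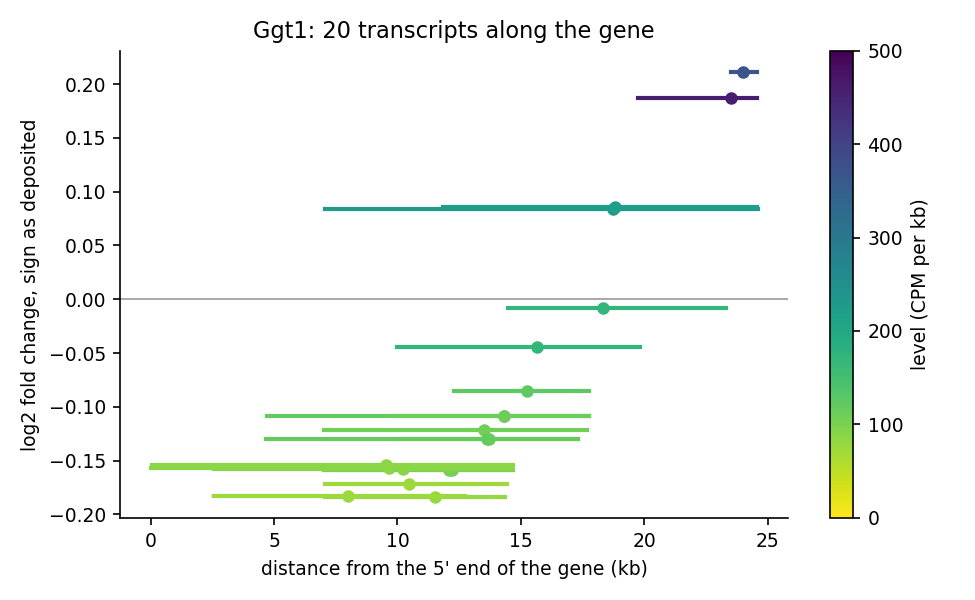
Log2 fold change (vertical axis, sign as deposited) of 20 Ggt1 transcripts against distance from the gene's 5′ end in kb. Lines span each transcript, points mark the centre of its exons and colour gives its level in CPM per kb. Transcripts toward the 3′ end have higher fold changes, from -0.18 to 0.21, and higher levels.

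The level per length of Ggt1 transcripts was higher toward the 3′ end as well. The 8 that end first stood at 73.8 to 106 CPM per kb, the 7 next at 108 to 170 CPM per kb, and the full-length pair at 222 and 225 CPM per kb in the authors' deposited table. Those of 3′ exons alone stood at 369 and 459 CPM per kb in the authors' deposited table. The approximate standard error of the log2 fold change was larger at the 5′ side, 0.41 to 0.44 for the 8 that end first against 0.24 for the full-length pair.

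Mep1a and Dpp4 showed differences of the same sign along the gene. The short Mep1a transcripts of the 5′ side, Mep1a-203 and Mep1a-204, had log2 fold changes of -0.45 and -0.51 at 25.6 and 12.3 CPM, against -0.08 for both full-length transcripts, in the authors' deposited table. The 6 Dpp4 transcripts were all negative, and those of at least 1 CPM ran from -0.50 for Dpp4-203, which retains an intron, to -0.08 for the full-length Dpp4-201 in the authors' deposited table. Dpp4-203 stood at only 1.76 CPM, with an interval of -1.08 to 0.09, against 25.2 CPM for Dpp4-201. Dpp4-202 shares exon sequence with the antisense gene Gm13561, and since no source used here gives the strand setting of the counting, its value is uncertain. Slc15a2 had 14 transcripts, and those of at least 1 CPM ran from -0.21 for Slc15a2-206 to 0.12 for Slc15a2-203 in the authors' deposited table. Its lowest value was not on the 5′ side. The exon centre of Slc15a2-206 lies at 69.2% of the gene's length, while Slc15a2-213, at 8.93%, had 0.01. Slc15a2-203 stood at 2.00 CPM with an interval of -0.50 to 0.74. Anpep and Cndp2 each had a pair of coding transcripts within 0.01 of each other, and Mep1b and Dpep1 had 1 transcript each.

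The same comparison was made over all genes. For every gene with transcripts of at least 1 CPM whose exon centres lay at least 30% of the gene's length apart, the fold change of the 5′-most transcript was taken from that of the 3′-most. Over 3648 such genes the median difference was 0.15, the middle 50% ran from 0.05 to 0.27, and 87.6% were positive. The difference was 0.43 for Mep1a, 0.41 for Dpp4, 0.39 for Ggt1 and 0.10 for Slc15a2. For Dpp4 the pair was Dpp4-206 and Dpp4-203, which both retain an intron and stood at 2.23 and 1.76 CPM, and not the full-length transcript. Of the 3648 genes, 91.7% lay below Mep1a, 90.8% below Dpp4, 89.7% below Ggt1 and 37.5% below Slc15a2, again with the sign as deposited. With centres at least 60% apart, 940 genes remained, with a median of 0.18, an upper quartile of 0.32 and 89.5% positive. The member pairs lay 60.1% (Dpp4) to 80.4% (Slc15a2) apart, so these 940 genes are the closer background. Ranks of the members among them were not computed. RNA quality of the libraries was not tested.

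**Figure D4:**
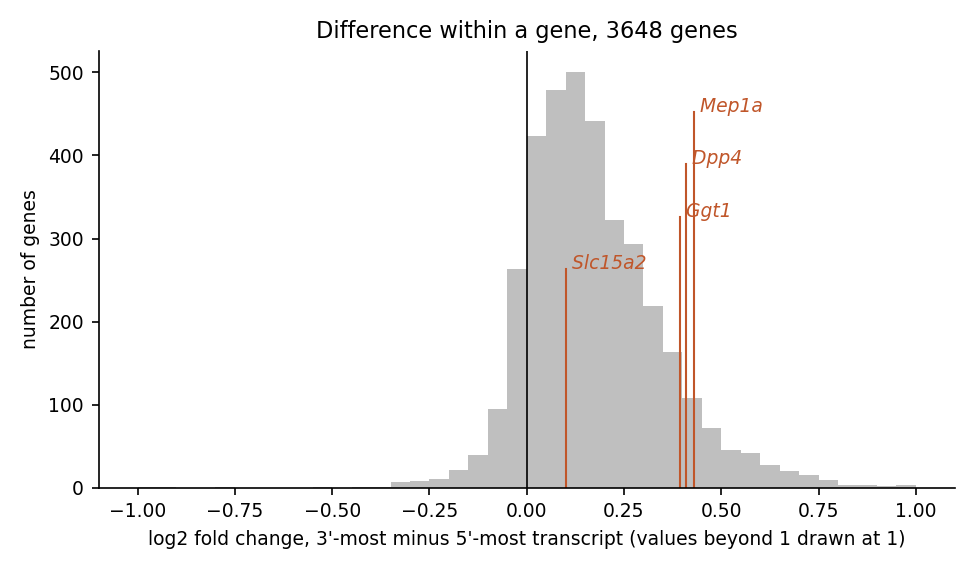
Histogram over 3648 genes of the log2 fold change of the 3′-most transcript minus that of the 5′-most. The median is 0.15, and Mep1a, Dpp4 and Ggt1 (lines, 0.39 to 0.43) lie in the upper part while Slc15a2 is at 0.10.

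The fold change was also lower for longer transcripts over coding genes of at least 1 CPM. It fell from a median of 0.10 for those of 2000 to 3000 nt to 0.01 for those of 4000 to 6000 nt. The most abundant transcripts of the 9 genes have 2140 to 5268 nt. After subtraction of a loess trend on transcript length and level, the 9 genes had a median of -0.0047, with 4 positive and 5 negative, against -0.0024 over all genes of at least 1 CPM. Dpep1 then stood at 0.11, Anpep at 0.08, Cndp2 at 0.01, Ggt1 at -0.033, Dpp4 at -0.08, Mep1a at -0.15 and Mep1b at -0.18. Xpnpep2 kept 0.33. The sign of Ggt1 and of Slc15a2 turned with this subtraction, and both values were within 0.04 of 0.

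The approximate standard errors show how far the table can resolve these genes. Among genes of 100 CPM or more the median standard error of the log2 fold change was 0.17 with a middle 50% from 0.15 to 0.22, and Mep1a, Ggt1 and Cndp2 had 0.23, 0.24 and 0.24. Among genes of 10 to 100 CPM the median was 0.13, with an upper quartile of 0.15. Dpp4 at 0.11 was under this median, while Anpep at 0.16, Slc15a2 at 0.17, Dpep1 at 0.23 and Mep1b at 0.29 were over the upper quartile. The 12 proximal tubule markers had standard errors of 0.17 to 0.32 with a median of 0.26, and the 9 genes had a median of 0.23. For Mep1a, Ggt1, Cndp2 and Dpep1 a 2.11-fold to 2.18-fold difference would have been needed to reach the smallest likelihood ratio called. The smallest likelihood ratio called is not the exact threshold, so a slightly smaller difference could also have been called.

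**Figure D5:**
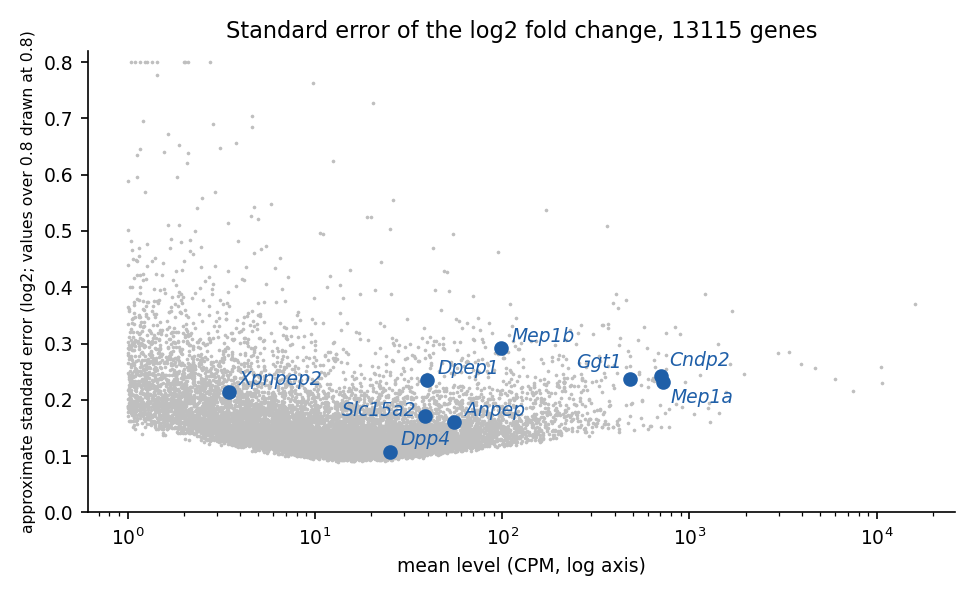
Approximate standard error of the log2 fold change against mean level (CPM, log axis) for 13115 genes (grey) and the 9 members (blue). All members but Dpp4 (0.11) stand over the upper quartile of genes of their level class.

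Other peptidases were followed as lists. For the lists here and below, the shares among genes of at least 1 CPM are 71.8% positive and 4.09% at an unadjusted p under 0.05. Of 17 other surface peptidases 9 were positive and 8 negative (median 0.02), and 0 passed the adjusted test. With the trend removed 7 of 14 were positive (median -0.01). The authors' deposited table lists log2 fold changes of -0.09 for Ace, the gene of angiotensin-converting enzyme, -0.17 for Mme, the gene of neprilysin, and 0.10 for Enpep, that of aminopeptidase A. Lnpep, which encodes an insulin-regulated aminopeptidase of vesicles and the cell surface, had the smallest p of this list, at -0.53 (-0.90 to -0.15, p = 0.00581, adjusted p = 0.665) in the authors' deposited table. Of 24 intracellular peptidases 18 were positive (median 0.10), or 13 with the trend removed (median 0.01). An unadjusted p under 0.05 was reached by 2 of the 24. They were the leukotriene A4 hydrolase Lta4h at 0.22 (0.03 to 0.41, adjusted p = 0.792) and the lysosomal carboxypeptidase Ctsa at 0.26 (0.01 to 0.50, adjusted p = 0.794) in the authors' deposited table.

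Genes of the microvilli that carry these enzymes, of their receptors and of a regulator were followed as well. Of 17 scaffold genes of the microvilli 11 were positive (median 0.04), or 7 of 16 with the trend removed (median -0.01). An unadjusted p under 0.05 was reached by 0 of the 17. The smallest p of this list belonged to Eps8l2, an actin regulator whose most abundant transcript retains an intron, at -0.20 (-0.43 to 0.03) in the authors' deposited table. Next came the actin bundler Pls1 at 0.16 (-0.04 to 0.36) and Slc9a3r1, a scaffold that anchors membrane carriers, at 0.22 (-0.11 to 0.56) in the authors' deposited table. Of 5 genes of endocytic uptake 2 were positive (median -0.01), or 3 with the trend removed (median 0.03). Their smallest p, 0.0609, was that of Amn at 0.32 in the authors' deposited table. Of 7 other brush border enzymes 4 were positive (median 0.01), or 3 of 6 with the trend removed (median -8.2e-05). Their smallest p was that of the alkaline phosphatase gene Alpl at 0.35 (-0.04 to 0.74) in the authors' deposited table. The transcription factor gene Hnf4a, whose product drives proximal tubule genes, had a log2 fold change of -0.13 (-0.60 to 0.34) in the authors' deposited table.

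Markers of the cells that carry the peptidases were counted too. Of the 12 proximal tubule markers 10 were positive (median 0.12), or 11 with the trend removed (median 0.06). An unadjusted p under 0.05 was reached by 1 of the 12, the sulfate carrier Slc13a1 at 0.33, in the authors' deposited table. Of 7 markers of the straight proximal tubule 3 were positive (median -0.0039), or 2 with the trend removed (median -0.13). An unadjusted p under 0.05 was reached by 1, Slc7a12, an amino acid carrier higher in females, listed in the authors' deposited table at -0.95 (p = 0.000503, adjusted p = 0.359). The 9 tubular injury markers had log2 fold changes from -0.50 to 0.64, with 0 at an unadjusted p under 0.05.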

How the data were processed

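RNA was sequenced from kidneys of 5 vehicle and 5 quinolinic acid mice, grouped by sample title. The submitters' processing notes name edgeR, featureCounts, Subread 1.4.6, STAR 2.5.3a, FastQC 0.11.2 and the build mm10, with no role or order. Annotation release, filters and strand setting are not given in the sources used here. The authors' deposited log2 fold change, mean log2 CPM, likelihood-ratio score and p-value for each transcript were used as they stand. Recomputing from the score (chi-square, 1 degree of freedom) gave back the deposited p-value, and Benjamini-Hochberg adjustment over 85107 transcripts the adjusted p.

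GENCODE vM21 names were joined on the transcript ID with its version dropped, which matched 83446 (98.0%) and left out 1661. The standard error was the size of the log2 fold change over the root of the likelihood ratio, and so rests on the authors' model. The depth of libraries is unknown. The difference needed to reach the smallest likelihood ratio called, 21.5, was the standard error times the root of that ratio. Trends on log2 length and level were removed with loess (span 0.5, degree 2, R 4.3.3) over genes of at least 1 CPM. The step was run on simulated data with larger changes than those of any member and a trend on length alone. Its behaviour for changes as small as those of the members was not tested. Python 3.11.15 with numpy 2.4.6, pandas 2.3.3, scipy 1.17.1 and matplotlib 3.10.9 did the rest.

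The members and lists were chosen with earlier results of these data known. The rule for names was all members, Ace, Mme, Enpep, Hnf4a and others not reported here, up to 4 genes of each other list by smallest p, and the transcripts of a member with the highest and lowest fold change. No list was tested as a set. The within-gene comparison was added after seeing the data. Alternatives were other thresholds, filters, transcripts and trends.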

Additional observations from a re-analysis of the deposited data

How the results depend on the processing

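The count of member genes called stayed at 0 with an adjusted p under 0.1, with 1 transcript per gene, among transcripts of at least 1 or 10 CPM, with any transcript of a gene, with coding transcripts, and with the trend on length and level, or on these and GC content, removed. The smallest adjusted p lay between 0.794 and 1.00 over these settings. The count at an unadjusted p under 0.05 stayed at 0 with coding transcripts and after the trend on length and level was removed. The median log2 fold change of the members lay between -0.01 and 0.09 over 8 alternatives, including 1 added after seeing the data (without Xpnpep2). Of 27 alternatives for single members 23 kept their sign and 4 turned it. Ggt1 stood at -0.13 as the median over its transcripts and at -0.033 with the trend removed, and Slc15a2 at -0.0083 and at -0.0047. For the median over transcripts the turn comes from the many partial transcripts, and for the trend from its subtraction. No paired analysis was possible because the table holds a finished comparison with no values of single libraries, and for the same reason leaving out each replicate was not run. Depth per library is unknown, so what it limits cannot be separated from the spread between mice.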

Other observations

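Among transcripts that retain an intron, the short Mep1a-204 (interval -1.42 to 0.41) had a lower log2 fold change than the coding Mep1a-202 by 0.43. For Dpp4, Ggt1 and Slc15a2 the most abundant retained-intron transcript differed from the coding transcript by -0.01, 0.13 and -0.02. The exon centre of Mep1a-204 lies at 1.23% of the gene's length and that of Ggt1-220 at 97.7%. For these 2, a retained intron and position along the gene cannot be told apart. Over 3680 genes with both kinds at 1 CPM or more, the retained-intron value minus the coding value was -0.01 at the median, its middle 50% ran from -0.11 to 0.02, and 37.4% were positive.

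Genes known to be higher in female than in male proximal tubules had a negative sign in 4 of 4, led by Slc7a12 (-0.95) and Cyp4a14 (-1.11), with an adjusted p of 0.359 and 0.794 in the authors' deposited table. Of 7 genes known to be higher in males, 4 were positive (median 0.07). The authors' deposited table has Xist at 0.0631 CPM. The 4 Y-linked genes stood between 7.81 and 35.3 CPM, with log2 fold changes from -0.20 to 0.10, in the authors' deposited table.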
